A study of Homo sapiens with 6 samples.

Results

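The genes described here encode the cofilin switch: the actin-severing proteins CFL1, CFL2 and DSTN, the kinases LIMK1, LIMK2, TESK1 and TESK2 that phosphorylate them, and the slingshot phosphatases SSH1, SSH2 and SSH3 that remove the phosphate. They were chosen by gene symbol from their known function, with no measured value in the rule, though earlier results of these data were known. They are 10 of the 61155 symbols in the count table. All 10 were present and passed the filter on low counts. The study sequenced RNA of MDA-MB-231 cells, a human breast cancer cell line of mesenchymal appearance in long use, as 3 control libraries and 3 libraries after knockdown of VASP, an actin filament elongation factor. Sample titles call the groups plko and shVASP, whereas other labels describe transient transfection of a control or a VASP siRNA, so the reagent is not known. Both groups were transfected and harvested 48 hours later. A single cell line was used, and no label states that the libraries are separate cultures. The headings of the 3 control columns extend the title of 1 control sample, so the controls may be repeats of a single culture, and n = 3 counts libraries. The p-values below therefore reflect the spread among these 6 libraries alone, and that spread may be technical.

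Cofilin and its close relative destrin (also called ADF) bind aged actin filaments, sever them and speed the release of actin subunits, which keeps the protrusions of a moving cell turning over. LIM kinases and the testis-named TES kinases phosphorylate cofilin on a serine near its start, which blocks actin binding, and slingshot phosphatases restore the active form. ROCK and PAK kinases activate LIM kinases, and 14-3-3 proteins hold phosphorylated slingshot away from filaments. The activity of the switch lies in protein phosphorylation, which RNA counts do not measure.

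Library totals ran from 28856610 to 30055503 counts, and 16633 genes were tested. VASP itself had 156, 174 and 163 CPM (counts scaled to library size by the TMM method, the unit used below unless another is named) in control and 12.9, 12.8 and 12.3 CPM in knockdown libraries, a log2 fold change of -3.69 (SE 0.06, edgeR adjusted p = 8.3e-24). The 5 markers of the line were abundant and summed to 5053 to 5138 CPM in control and 5047 to 5115 CPM in knockdown libraries, with VIM at 1631 to 1738 CPM over the 6 libraries. Within that sum EGFR was higher without overlap (563 to 640 CPM in control, 700 to 738 CPM in knockdown libraries), and AXL (1873 to 1910, then 1733 to 1781 CPM) and CAV1 (362 to 376, then 338 to 347 CPM) were lower without overlap. ESR1 stayed at or under 0.828 CPM, and PGR and CDH1 at 3 counts or fewer. ERBB2 (105 to 109, then 94.1 to 102 CPM) and EPCAM (6.13 to 6.64, then 4.77 to 5.93 CPM) were lower without overlap. These 5 luminal or epithelial markers summed to 112 to 116 CPM in control and 100 to 108 CPM in knockdown libraries. Markers of blood, vessel, muscle and fat cells summed to 4.08 to 5.14 CPM in control and 3.10 to 4.67 CPM in knockdown libraries, with PTPRC at 4 counts or fewer, MYH11 at 0 and PECAM1 lower without overlap (2.63 to 3.19, then 1.70 to 2.30 CPM). Over all genes tested, the CPM of the groups did not overlap for 47.6%. The part of these markers in the results below was not tested. In bulk RNA, fewer cells of a kind and less RNA per cell cannot be told apart. Fold changes also moved with the base composition of transcripts, from a median log2 fold change of 0.18 in the decile of genes with the lowest GC content to -0.24 in the decile with the highest. Each member is therefore given also with GC content and exon length corrected for, and the part of composition in any single change was not tested.

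Of the 10 genes, 3 fell at an edgeR adjusted p under 0.05 (LIMK1, SSH1 and DSTN), 0 rose and 7 were not called. The members that fell thus include 1 kinase, 1 phosphatase and 1 of the actin-severing proteins. Over all genes tested, 37.2% were called, 18.3% as lower and 18.9% as higher, so 3 of 10 called is near that background and is not a result about the group. Their median log2 fold change was -0.11, beside -0.01 over all genes, and the median size of the change was 0.13, beside 0.19 over all genes. The CPM of the groups did not overlap for 6 of the 10 (the 3 called genes with LIMK2, TESK1 and TESK2), beside 47.6% of all genes. After the GC and length correction LIMK1, SSH1 and DSTN were again lower and LIMK2 was higher, with 28.9% of all genes called.

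**Figure D1:**
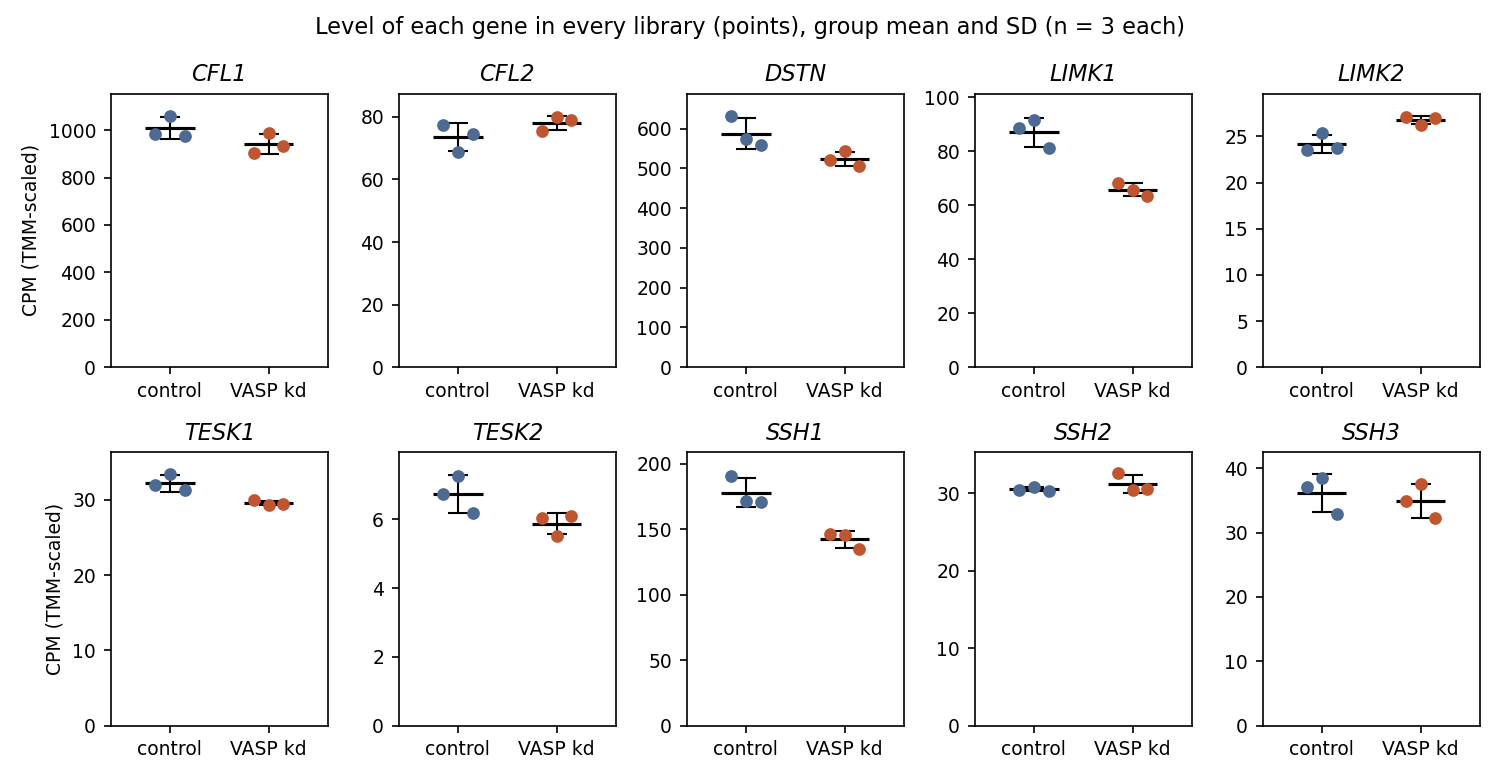
Level of each of the 10 genes (CPM, y axis from 0) in the 3 control and 3 VASP knockdown libraries, 1 point per library, with the group mean (thick bar) and SD. The points of LIMK1 lie between 81.0 and 91.4 in control and between 63.3 and 68.2 in knockdown libraries, and those of SSH1 also separate, while CFL1, CFL2, SSH2 and SSH3 overlap.

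The promoter windows of the 3 genes that fell are shown because these are the members that passed the test. In all, 7 of the 10 members had a log2 fold change below 0. The windows are the 250 bases before the first RefSeq start listed for each gene on GRCh38.p14, 5′ to 3′ on the gene's strand. Their places are chr7:74083554-74083803 (plus strand) for LIMK1, chr12:108857584-108857833 (minus strand) for SSH1 and chr20:17569825-17570074 (plus strand) for DSTN. LIMK1, SSH1, CFL2, LIMK2 and SSH2 have 2 listed starts each, and only the first was used. The LIMK1 window lies inside the annotated gene, which begins at 74082933. The bases that follow it were found in 0 LIMK1 transcripts of GENCODE release 29. Which starts these cells use was not tested. Capitals mark the GC box core GGGCGG, the letters read by SP and KLF factors, on either strand, so that CCGCCC is a match on the other strand.
LIMK1: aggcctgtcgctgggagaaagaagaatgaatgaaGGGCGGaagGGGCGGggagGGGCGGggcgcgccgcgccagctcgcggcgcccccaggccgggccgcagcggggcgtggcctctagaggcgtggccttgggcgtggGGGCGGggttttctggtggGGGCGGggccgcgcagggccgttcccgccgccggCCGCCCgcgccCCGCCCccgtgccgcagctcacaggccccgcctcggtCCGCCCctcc
SSH1: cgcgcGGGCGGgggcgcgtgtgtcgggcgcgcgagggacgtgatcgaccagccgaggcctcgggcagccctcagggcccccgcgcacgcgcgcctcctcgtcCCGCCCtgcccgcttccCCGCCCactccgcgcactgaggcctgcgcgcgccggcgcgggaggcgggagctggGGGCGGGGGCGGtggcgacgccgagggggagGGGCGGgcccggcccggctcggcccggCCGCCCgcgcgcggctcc
DSTN: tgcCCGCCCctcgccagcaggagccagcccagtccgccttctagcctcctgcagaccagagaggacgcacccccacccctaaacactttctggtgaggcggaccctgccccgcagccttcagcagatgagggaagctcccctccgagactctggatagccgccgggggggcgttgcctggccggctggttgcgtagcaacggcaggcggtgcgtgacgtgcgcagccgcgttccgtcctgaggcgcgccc
LIMK1 held 8 matches, a number that 0.584% of 35116 RefSeq promoter windows reach or pass. SSH1 held 7, which 1.12% of windows reach or pass, and DSTN held 1, where 42.6% of windows hold 1 or more. The genes that were not called also held the motif: SSH3 held 5, CFL2 held 3, CFL1, LIMK2 and TESK1 held 2 each, and SSH2 and TESK2 held 1 each. Of the 250 window bases, 250 in CFL1 and 230 in CFL2 lie in annotated exons of the same gene, and 59 or fewer in the other members. GC content of the windows was 79.6% for LIMK1, 85.2% for SSH1 and 70.0% for DSTN, beside a median of 58.0% over all windows. The windows of the 7 genes not called were also above that median, from 59.6% in TESK2 to 80.4% in CFL2. The number of matches was not set against windows of like composition. The TEAD word GGAATG (either strand) was found in TESK2 only, beside 11.9% of all windows, and the CArG box of serum response factor in none of the 10, beside 1.16%. A match is a run of letters in this window and no evidence of binding.

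Among the actin-severing proteins, DSTN fell, and CFL1 and CFL2 did not pass the test. DSTN (ENSG00000125868, GRCh38 chromosome 20, 17570075 to 17609919, plus strand), which encodes destrin, was at 631, 573 and 559 CPM in control and 520, 543 and 507 CPM in knockdown libraries. Every knockdown library lay under every control library, and control replicate 1 stood above the other controls. The mean went from 588 ± 38.3 to 523 ± 18.4 CPM (SD, n = 3 each), a log2 fold change of -0.17 (SE 0.05, 95% interval -0.28 to -0.06, edgeR adjusted p = 0.0154). The call rests on single libraries: the adjusted p was 0.113 without control replicate 1, 0.0575 without knockdown replicate 1 and 0.0820 without knockdown replicate 3. DSTN transcripts have a GC content of 42.0%, in a decile of genes whose median log2 fold change was 0.11, and after the correction its log2 fold change was -0.25 (adjusted p = 0.000825). DSTN has processed copies elsewhere in the genome, and the 4 DSTN pseudogene symbols in the table together held 113 to 168 counts per library, beside 14886 to 18420 for DSTN.

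CFL1 (ENSG00000172757, chromosome 11, 65823022 to 65862026, minus strand), the non-muscle cofilin, was at 986, 1061 and 977 CPM in control and 905, 987 and 934 CPM in knockdown libraries. The groups overlapped, since knockdown replicate 2 lay above 2 of the controls. The log2 fold change was -0.10 (95% interval -0.21 to 0.01, edgeR adjusted p = 0.156), and -0.01 after the correction. Its exons share 759 bases, 12.9% of their length, with MUS81 on the opposite strand, and fragments lying in both were not counted. CFL2 (ENSG00000165410, chromosome 14, 34709113 to 34714823, minus strand), the cofilin known from muscle, was at 77.4, 68.8 and 74.5 CPM in control and 75.5, 79.9 and 78.8 CPM in knockdown libraries. These also overlapped, with a log2 fold change of 0.09 (95% interval -0.02 to 0.19, edgeR adjusted p = 0.209) that took the other sign, -0.05, after the correction.

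Of the 4 kinases, LIMK1 fell, LIMK2 lay higher without passing the test, and the TES kinases were not called. LIMK1 (ENSG00000106683, chromosome 7, 74082933 to 74122525, plus strand) had 88.5, 91.4 and 81.0 CPM in control and 68.2, 65.6 and 63.3 CPM in knockdown libraries. The lowest control library stood well above the highest knockdown library. The mean went from 87.0 ± 5.38 to 65.7 ± 2.44 CPM (SD, n = 3 each), 24.5% less, with a log2 fold change of -0.40 (SE 0.05, 95% interval -0.52 to -0.29, edgeR adjusted p = 3.4e-06). It was the only member called when the test asked for a change beyond 1.2-fold (adjusted p = 0.0323), which 5.73% of all genes passed. LIMK1 transcripts are GC-rich at 59.7%, in a decile of genes with a median log2 fold change of -0.14, and the correction left a log2 fold change of -0.26 (SE 0.05, adjusted p = 0.000192).

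LIMK2 (ENSG00000182541, chromosome 22, 31212239 to 31280080, plus strand), the other LIM kinase, had 23.5, 25.3 and 23.7 CPM in control and 27.1, 26.2 and 27.0 CPM in knockdown libraries. The groups did not overlap, yet the gap between control replicate 2 and knockdown replicate 2 was small. The log2 fold change was 0.15 (SE 0.06, 95% interval 0.02 to 0.27, edgeR adjusted p = 0.0675). It passed the test with libraries scaled by their total counts alone (0.17, adjusted p = 0.0484) and after the correction (0.23, adjusted p = 0.00546). The estimates of the LIM kinases thus had opposite signs, at a GC content of 55.1% in LIMK2.

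TESK1 (ENSG00000107140, chromosome 9, 35605262 to 35610041, plus strand), a kinase of the same branch first found in testis, had 31.9, 33.4 and 31.3 CPM in control and 29.9, 29.3 and 29.4 CPM in knockdown libraries. All 3 knockdown libraries lay just under the lowest control, with a log2 fold change of -0.12 (95% interval -0.24 to -0.003, edgeR adjusted p = 0.101). At a GC content of 62.8% it sits in the decile of genes with a median log2 fold change of -0.24, and the corrected value was 0.08 (adjusted p = 0.268). Its exons share 509 bases, 15.2% of their length, with CD72 on the opposite strand, which held at most 22 counts. TESK2 (ENSG00000070759, chromosome 1, 45343883 to 45491163, minus strand) was the scarcest member, with 6.75, 7.28 and 6.19 CPM in control and 6.03, 5.51 and 6.09 CPM in knockdown libraries. The groups were close without overlapping, and the log2 fold change of -0.20 had the widest interval of the 10 (-0.41 to 0.02, edgeR adjusted p = 0.144), and was -0.14 after the correction (adjusted p = 0.297). Its exons share 930 bases, 28.0% of their length, with AL451136.1 on the same strand, so its level may be undercounted.

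Of the slingshot phosphatases, SSH1 fell, and SSH2 and SSH3 did not pass the test. SSH1 (ENSG00000084112, chromosome 12, 108778191 to 108857590, minus strand) had 191, 172 and 171 CPM in control and 146, 145 and 135 CPM in knockdown libraries. Every control library lay well above every knockdown library. The mean went from 178 ± 11.1 to 142 ± 6.26 CPM (SD, n = 3 each), 1.25-fold lower, with a log2 fold change of -0.32 (SE 0.05, 95% interval -0.43 to -0.22, edgeR adjusted p = 3.6e-05). Its change did not pass the test beyond 1.2-fold (adjusted p = 0.309). With a GC content of 51.4%, in a decile of genes with a median of -0.05, SSH1 had a corrected log2 fold change of -0.26 (SE 0.05, adjusted p = 0.000261), beside -0.26 in LIMK1.

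SSH2 (ENSG00000141298, chromosome 17, 29625938 to 29930276, minus strand) had 30.4, 30.9 and 30.3 CPM in control and 32.6, 30.4 and 30.5 CPM in knockdown libraries. The libraries other than knockdown replicate 1 were nearly equal, and the log2 fold change was 0.03 (95% interval -0.09 to 0.15, edgeR adjusted p = 0.714), and 0.05 after the correction. SSH3 (ENSG00000172830, chromosome 11, 67303478 to 67312607, plus strand), the slingshot with the weakest known activity toward cofilin, had 37.0, 38.5 and 32.9 CPM in control and 34.9, 37.5 and 32.3 CPM in knockdown libraries. Both groups spread more than they differed (log2 fold change -0.05, 95% interval -0.19 to 0.09, edgeR adjusted p = 0.60). The estimate turned to 0.01 without knockdown replicate 3 and to 0.15 after the correction (adjusted p = 0.0523), at a GC content of 62.7%, so its direction is not determined.

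**Figure D2:**
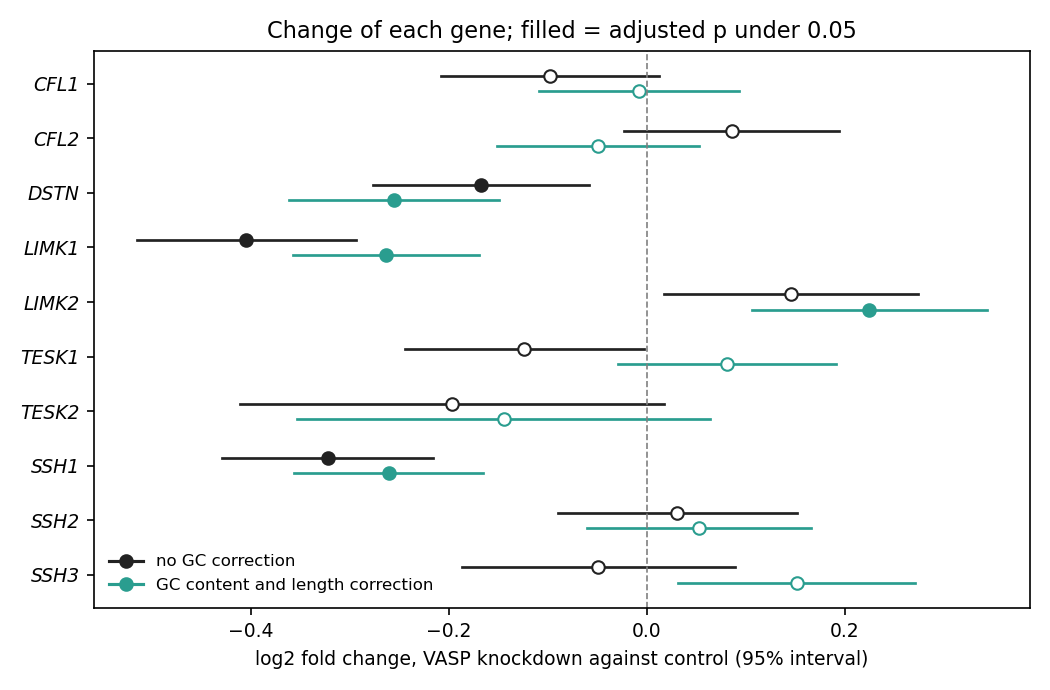
Log2 fold change of each gene, VASP knockdown against control (x axis), with its 95% interval, before (black) and after (green) the correction for GC content and transcript length. Filled points have an adjusted p under 0.05. LIMK1, SSH1 and DSTN are filled and below 0 in both, and LIMK2 is filled in the corrected fit only, at 0.23.

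Levels of different genes were compared as TPM, which divides counts by exon length before scaling each library to the same total. That length is merged over all annotated exons of a gene (5865 bases for CFL1, 3639 for DSTN and 14538 for SSH1). It may differ from the length of the transcripts these cells make, which was not tested. The order, shares and sizes of ratios between genes depend on it. In CPM the control means were 1008 for CFL1 and 588 for DSTN. In control libraries CFL1 stood at 468 TPM and DSTN at 439 TPM, with overlapping ranges. CFL2 followed at 40.5 TPM, so the muscle cofilin was 4.28% of the summed cofilin and destrin TPM. LIMK1 (33.7 TPM) and SSH1 (33.3 TPM) were next and overlapped each other, as did SSH3 (27.2 TPM) and TESK1 (26.3 TPM). LIMK2 at 10.7 TPM, SSH2 at 6.55 TPM and TESK2 at 5.53 TPM closed the order, and their control ranges did not overlap. The most abundant of the kinases and the most abundant of the slingshots by TPM were thus the 2 regulators that fell. On the TPM scale, which follows each library's composition, DSTN ranged from 419.7 to 456.8 in control and from 392.9 to 426.9 in knockdown libraries, so its groups overlapped there and not in CPM.

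**Figure D3:**
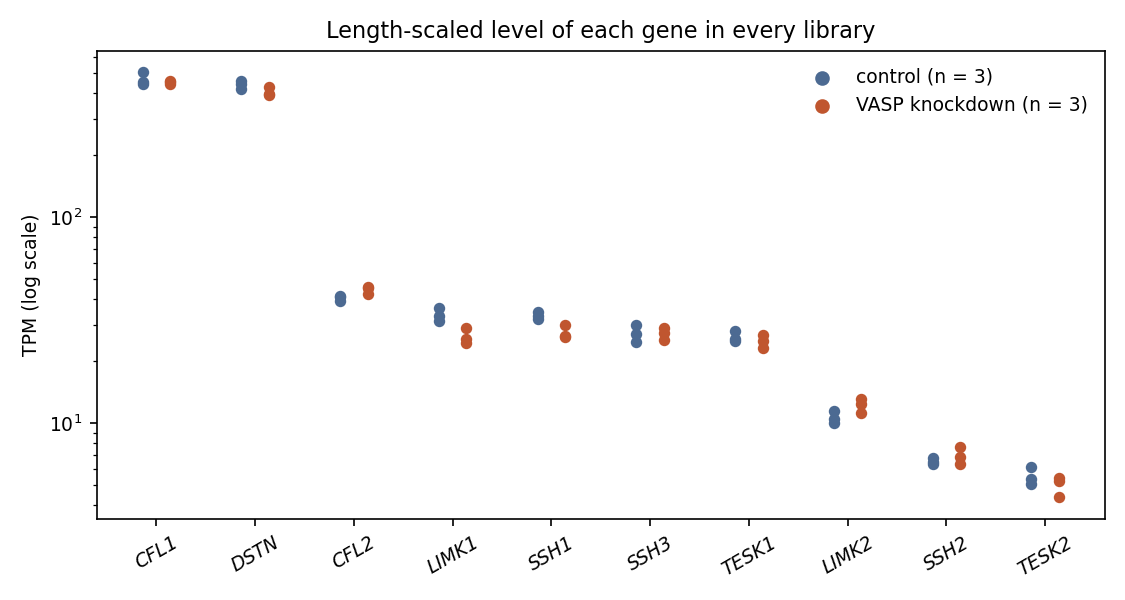
Level per transcript length of each gene (TPM, log axis) in every library, control in blue and VASP knockdown in red, ordered by the control mean. CFL1 and DSTN lie at 392.9 TPM or more in all libraries, and the next gene, CFL2, at 39.0 to 45.6 TPM.

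Within libraries, the ratios of LIMK1 to LIMK2 and of SSH1 to SSH2 did not overlap between the groups, and that of CFL1 to DSTN did. The ratio of LIMK1 to LIMK2 TPM was 3.30, 3.16 and 2.99 in control and 2.21, 2.19 and 2.06 in knockdown libraries, with no overlap. LIMK1 was lower and LIMK2 higher in CPM, each without overlap, so the separation of their ratio follows from those levels. LIMK1 made up 44.2 ± 0.838% of the summed TPM of the 4 kinases in control and 38.4 ± 0.836% in knockdown libraries (SD, n = 3 each), and LIMK2 made up 13.6% to 14.5% in control and 17.7% to 18.2% in knockdown libraries. The ratio of SSH1 to SSH2 was 5.47, 4.86 and 4.93 in control and 3.92, 4.17 and 3.86 in knockdown libraries, again with no overlap. SSH1 went from 49.6% to 44.7% of slingshot TPM and SSH3 from 40.6% to 44.1%. The ratio of CFL1 to DSTN was 1.07 ± 0.0912 in control and 1.12 ± 0.0335 in knockdown libraries, and overlapped. CFL2 made up 3.95% to 4.50% of cofilin and destrin TPM in control and 4.85% to 5.07% in knockdown libraries, without overlap. The share of TESK2 among the kinases also overlapped, at 6.92% to 7.64% over the 6 libraries. Ratios within a library do not depend on how libraries are scaled to each other, but they show only unequal change, and these differences were not tested.

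Ratios between opposing enzymes overlapped between the groups. The ratio of LIMK1 to SSH1 TPM was 1.01 ± 0.0763 in control and 0.955 ± 0.0208 in knockdown libraries (SD, n = 3 each), with 0.959, 1.10 and 0.978 in control and 0.964, 0.931 and 0.969 in knockdown libraries. The ratio of all 4 kinases to all 3 slingshots was 1.14 ± 0.0459 and 1.11 ± 0.0558, also overlapping. Overlap in 3 libraries a group does not show that these proportions were equal. The summed TPM of the 4 kinases was 76.1 ± 5.21 in control and 68.6 ± 5.53 in knockdown libraries and that of the slingshots 58.8 to 69.8 over all libraries, both with overlap. Per length on the TMM scale (RPKM) neither sum overlapped, at 28.0 and 24.3 for the kinases and 24.6 and 21.9 for the slingshots. The cofilin and destrin sum also overlapped in TPM and not in RPKM, at 348 and 320 RPKM.

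**Figure D4:**
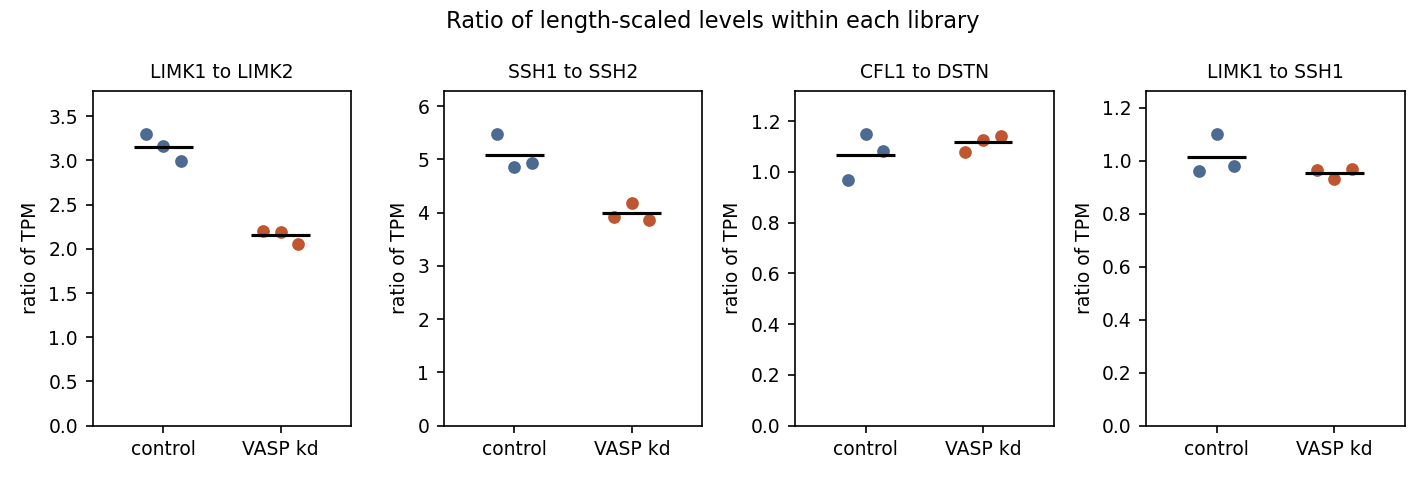
Ratio of TPM between pairs of genes within each library (y axis from 0), control in blue and VASP knockdown in red, with the group mean as a bar. LIMK1 to LIMK2 goes from 3.15 to 2.15 and SSH1 to SSH2 from 5.09 to 3.98 with no overlap, while CFL1 to DSTN and LIMK1 to SSH1 overlap.

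The genes whose profile over the 6 libraries lay nearest to that of LIMK1, the member with the smallest p, were LTBP4, PLEKHG5 and INAVA, by the root mean square difference of centred log2 CPM among 12310 genes (0.0105, 0.0201 and 0.0218). That distance includes the difference between the groups, so log2 fold changes near that of LIMK1 follow from the choice. They were -0.40 for LTBP4 and -0.39 for PLEKHG5, and -0.45 for INAVA. After the GC and length correction LTBP4 was at -0.15, PLEKHG5 at -0.18 with an adjusted p of 0.0565, and INAVA at -0.28. Among the other 9 members, SSH1 was nearest to LIMK1 (0.0762, rank 483 of the 12310 genes) and LIMK2 farthest (0.280, rank 8100).

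Around the switch, 50 genes in 6 lists were read from the same fit, of which 46 were tested, 19 rose, 10 fell and 17 were not called. The share called, 29 of 46, stands beside 37.2% of all genes, and the median log2 fold change was 0.06, beside -0.01. The lists were not matched to all genes by level, so these shares are not a like comparison. With a fold change of 1.2 as the null, 4 of 51 surrounding genes (all 7 lists) were called, beside 5.73% of all genes. The split changed with the correction, after which 19 rose and 3 fell, with a median of 0.10. In the corrected fit 28.9% of all genes were called, and the median over all genes was 0.03. The genes named from each list are those with the smallest p.

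Kinases upstream of LIM kinases or slingshots were called in both directions. Of 10 tested, 4 rose (ROCK1, ROCK2, PAK1 and PRKD3) and 3 fell (PAK4, MAPKAPK2 and PRKD2), with 37.2% of all genes called. ROCK2, a kinase that phosphorylates LIM kinases, had the smallest p in the list and went from 56.6 ± 1.26 to 83.5 ± 1.72 CPM (SD, n = 3 each), a log2 fold change of 0.56 (SE 0.05, edgeR adjusted p = 8.6e-09), while its paralog ROCK1 rose by 0.36. After the correction ROCK2 was at 0.44 and ROCK1 at 0.24. MAPKAPK2, a stress kinase that phosphorylates LIMK1, had a log2 fold change of -0.33, and -0.20 after the correction. PAK4 and PRKD2, a protein kinase D that acts on slingshot, lost their calls after the correction (adjusted p = 0.533 and 0.521), as did PRKD3 (0.673).

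The next lists hold other phosphatases of cofilin or slingshot and the 14-3-3 proteins. Of 9 phosphatase genes tested, 5 rose and 1 fell, with 37.2% of all genes called, and PPP3R1 and PPP1CB lost their calls as risen genes after the correction (adjusted p = 0.0745 and 0.704). The catalytic subunits PPP1CC and PPP2CA, of the general phosphatases 1 and 2A, rose by 0.28 and 0.26, and by 0.19 and 0.16 after the correction. PPP3CB, a catalytic subunit of calcineurin, which activates slingshot on calcium signals, fell by 0.24 on the log2 scale. PDXP, the cofilin phosphatase chronophin, was nearly absent at 0.715 to 1.11 CPM over the libraries. Of 6 tested genes for 14-3-3 proteins, YWHAH (0.25) and YWHAQ (0.18) rose, 0 fell and 4 were not called, a share near the 37.2% over all genes. PPP1CA of the phosphatase list and SFN of the 14-3-3 list were called as risen only after the correction (0.14 and 0.13, edgeR adjusted p = 0.0206 and 0.0357).

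Of 6 tested relatives of cofilin that share its actin-binding fold, 2 rose and 3 fell, with 37.2% of all genes called. TWF1, a twinfilin that caps and depolymerizes filaments, rose from 71.7 ± 2.41 to 95.6 ± 0.389 CPM (log2 fold change 0.42, edgeR adjusted p = 5.5e-07). GMFB, which debranches actin networks, rose by 0.40. After the correction TWF1 was at 0.29 and GMFB at 0.27, and DBNL, not called before it, was called as risen (0.21, edgeR adjusted p = 0.00136). COTL1, a coactosin-like protein that binds actin filaments, had a log2 fold change of -0.21 (-0.14 after the correction), and TWF2 and DBN1 also fell but were near 0 after the correction (-0.003 and -0.01). Of 8 tested cofactors and actins, 2 rose and 2 fell, beside the same 37.2%. CAP1, which works with cofilin to recycle actin subunits, rose by 0.20, and CORO1C rose by 0.16, a call lost without control replicate 2 (adjusted p = 0.0660). CORO1B was called as risen only after the correction (from -0.07 to 0.16, edgeR adjusted p = 0.0105). ACTG1 fell from 4688 ± 61.9 to 4094 ± 118 CPM (log2 fold change -0.20, edgeR adjusted p = 0.0102), but not without knockdown replicate 3 (0.0685) nor after the correction (0.284), and ACTB likewise lost its call after the correction (0.454).

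Of 7 genes known as partners of the kinases, 4 rose and 1 fell, with 37.2% of all genes called. HSP90AA1, 1 of those that rose, lost its call after the correction (adjusted p = 0.0628). RNF6, a ubiquitin ligase that targets LIMK1 protein, rose from 38.7 ± 2.28 to 51.8 ± 0.637 CPM (log2 fold change 0.42, edgeR adjusted p = 3.7e-06). SPRY4, an inhibitor that binds TESK1, rose by 0.15, a call lost without knockdown replicate 1 (adjusted p = 0.0754) or knockdown replicate 3 (0.0570). NISCH, the nischarin gene, whose protein binds LIMK1 and PAK1, had a log2 fold change of -0.24, and -0.11 after the correction (adjusted p = 0.0509). Of the 50, GMFG and PRKD1 were too low to test. YWHAE and CTTN held 2 and 1 counts at most and lie on 2 sequences of the annotation each, and fragments that aligned to both would have been dropped, so these counts do not give their levels.

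**Figure D5:**
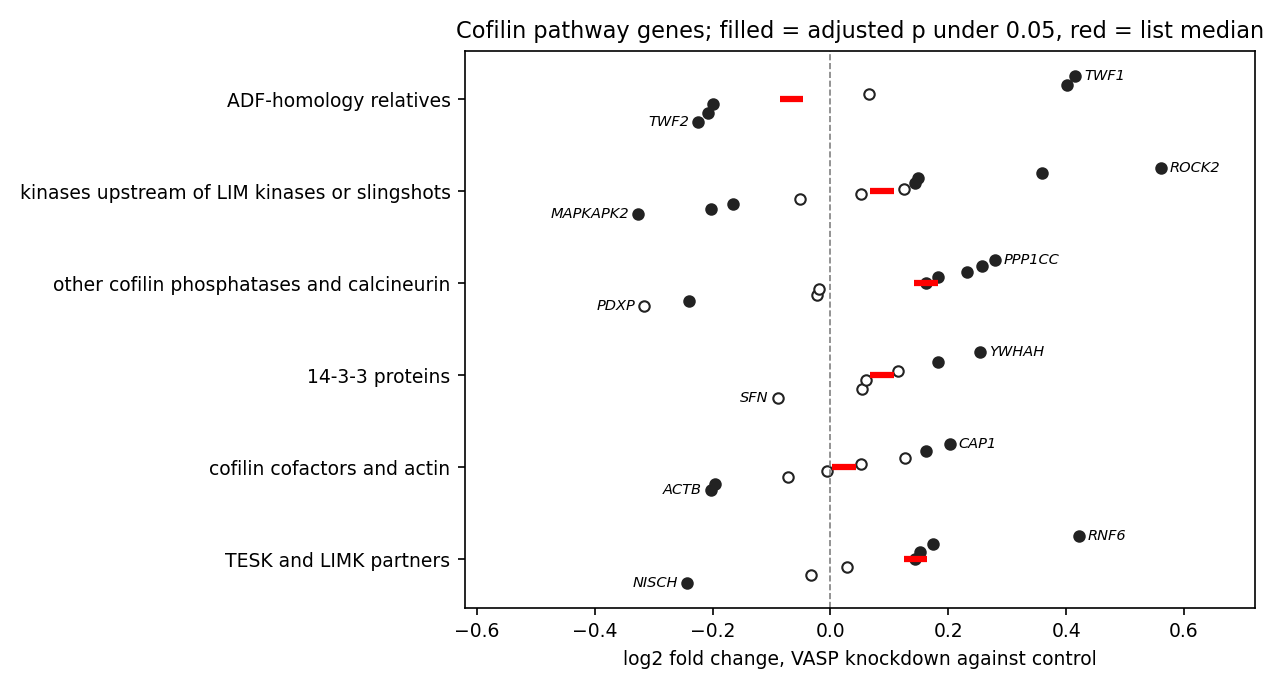
Log2 fold change of 46 tested genes around the cofilin switch, VASP knockdown against control (x axis), in 6 lists, 1 point per gene, filled where the adjusted p is under 0.05, with the median of each list in red. ROCK2 lies farthest to the right at 0.56 and MAPKAPK2 farthest to the left at -0.33.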

How the data were processed

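The deposited table holds raw whole-number counts, 1 per fragment, for each gene symbol. Per the file headers, the authors made them with featureCounts 1.6.4, counting read pairs over exons of GENCODE release 32 on GRCh38, with no option for strand, so overlapping genes on opposite strands lose shared fragments. STAR 2.7.1a and Trim Galore 0.6.4 are named in the submitters' processing notes. Control columns are headed with the title of 1 control sample plus a further number, and knockdown columns with 3 separate titles, so control numbers are names only and the controls may repeat a single culture.

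Counts were filtered with filterByExpr, TMM-scaled and tested two-sided by edgeR 4.0.16 quasi-likelihood (R 4.3.3), with group the only term and Benjamini-Hochberg adjustment over all 16633 genes (threshold 0.05). The script was tested on simulated data. A floor of 3 counts is 0.0998 to 0.104 CPM on library totals before TMM scaling, for counting error only. The correction enters splines of GC content (GENCODE release 29) and exon length, 5 degrees of freedom each, as offsets. Alternatives were DESeq2 1.42.0, other scalings and filters, a null of 1.2-fold, and leaving out each library. Promoter windows precede the first RefSeq start listed for each member.

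The members and gene lists were chosen with earlier results of these data known, and 1 of the 7 lists is not reported here. Named are VASP, the 10 members, up to 3 genes per list with the smallest p among those called, and the 3 genes nearest LIMK1. Others (TWF2, DBN1, DBNL, PAK1, PAK4, PRKD2, PRKD3, PDXP, PPP3R1, PPP1CA, PPP1CB, SFN, CORO1B, HSP90AA1, ACTB, the cell markers and the untested genes) were named after their values were seen.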

Additional observations from a re-analysis of the deposited data

How the results depend on the processing

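LIMK1 and SSH1 fell under every alternative run except that, with a fold change of 1.2 as the null, SSH1 was not called and 1 member in all (LIMK1) and 4 of the surrounding genes (all 7 lists) were, with 953 genes called in place of 6187. The count of members called was 2 to 3 when single libraries were left out, 1 with the 1.2-fold null and 3 or 4 otherwise. That of the surrounding genes was 24 to 32 when single libraries were left out. With the GC content and length correction 4 of 10 members and 27 of 51 surrounding genes (all 7 lists) were called, beside 28.9% of all genes. In that fit 3 members changed sign without being called in either fit: CFL2 to -0.049, TESK1 to 0.081 and SSH3 to 0.15. When single libraries were left out SSH3 ran from -0.11 to 0.0057. DSTN (1.12-fold) and LIMK2 (1.11-fold) are changes for which single libraries or settings decided the call. No paired analysis was possible because the control columns carry no replicate number that matches a control sample.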
